A study of Canis rufus and Canis latrans with 56 samples.

Results

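The genes described here are the glucocorticoid receptor gene NR3C1 and 9 genes known to respond to glucocorticoid hormones: FKBP5, KLF9, TSC22D3, DUSP1, PER1, SGK1, DDIT4, TXNIP and ZBTB16. They were chosen by name, and every probe annotated to one of them was taken. All 10 genes were on the array, on 12 of its 24354 probes, which name 16121 genes in all. TSC22D3 had 3 probes and each other gene had 1.

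The samples were whole blood, preserved in RNAlater, from 13 red wolves, a rare wild canid of North America labelled as Canis rufus, and from 1 coyote, a free-ranging female. According to the design text, 6 of the wolves were captive (2 females and 4 males) and 7 were free-ranging (2 females and 5 males). The title of the study names confinement as its question, but the labels used here do not say which numbered wolf was captive or female, so neither status nor sex was compared. The description of 1 array of each of wolves 11136, 111080 and 11310 and of the coyote mentions collection in the wild; since 7 wolves were free-ranging, the absence of that remark says nothing of a wolf, and it formed no group.

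After amplification and biotin labelling, the RNA of each animal was put on 4 Illumina bead arrays made for human transcripts, which came to 56 arrays on 7 slides. The 4 arrays of an animal are repeat measurements of its blood sample, so the spread between its arrays is array noise. Each animal counts once in the correlations and in the comparison with the coyote. The tests among the wolves use the single arrays and set differences against array noise. A value is the log2 intensity relative to the mean of the array, adjusted for slide, so that 1 unit stands for a 2-fold change of intensity. Readings of single arrays are given without the adjustment for slide, so the value of an animal can lie outside its readings. Gene names are those of the human probes. How well a canid transcript binds each probe was not measured, so a level is compared between animals and not between genes. The background bounds below do set a gene against other genes, so they are rough.

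Glucocorticoids such as cortisol enter cells freely and bind the receptor, which waits in the cytoplasm in a complex with heat shock chaperones. The receptor with its hormone moves to the nucleus and binds DNA, where it raises the transcription of some genes and lowers that of others, many of them inflammatory. In blood the hormone also moves leukocytes between the circulation and the tissues, so both the cells sampled and the RNA in each cell can change. In whole blood, fewer cells of a type and less RNA per cell cannot be told apart, which holds for every value below.

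Most of these genes gave little signal on the arrays. The bound for background was set by 41 measured genes of liver or muscle, which blood cells should lack. The brightest was CYP1A2, a liver enzyme gene, at 1.26, and none of the 10 genes had a mean level above it. The CYP1A2 probe itself differed among the wolves (adjusted p = 0.00301, limma's moderated F test), so a lower bound was added after the values were seen. Without CYP1A2 the highest of the remaining 40 genes was HPX, the haem carrier of plasma, at 0.40. KLF9 (1.09) and FKBP5 (0.44) exceeded the lower bound in their mean over the 14 animals, and the other 8 genes did not. HPX itself ran from 0.20 to 0.63 over the wolves, so the FKBP5 mean was not clear of it.

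**Figure D1:**
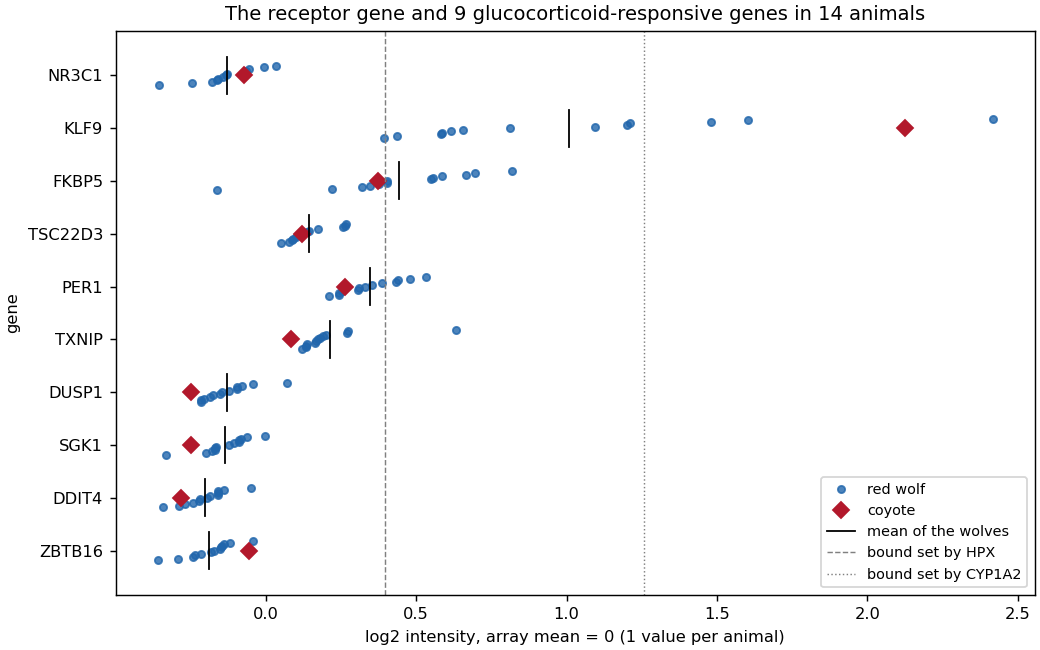
Each point is the log2 level of a gene (horizontal axis, relative to the array mean) in 1 of 13 red wolves, each diamond the coyote and each black bar the mean of the wolves; dashed and dotted lines are the bounds set by HPX (0.40) and CYP1A2 (1.26). KLF9 runs from 0.39 to 2.42 and FKBP5 from -0.16 to 0.82, while the wolves lie close together for the other genes, apart from 1 wolf at 0.63 for TXNIP.

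The first comparison asked which of the 10 genes differed among the wolves by more than their repeated arrays. KLF9 and FKBP5 did, and the other 8 did not pass the test (limma's moderated F test on 52 arrays with slide as a covariate, Benjamini-Hochberg adjustment over all 24354 probes). These 2 of 10 compare with 11.2% of all probes. At an unadjusted p under 0.05 TXNIP was added, making 3 of 10 against 22.2% of all probes. The called share depended on level: 78.2% of the 2064 probes above the lower bound were called and 5.02% of the others. The 2 genes above that bound were thus called, as most bright probes were, and the 8 below it were not, as most dim probes were not. Over the 10 genes the median share of variance lying between wolves was 0.10, against 0.07 over all probes and 0.52 over the probes above the lower bound. The median SD over wolves was 0.09 for both the 10 genes and all probes.

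NR3C1 encodes the receptor that binds cortisol. Its level was -0.36 in the lowest wolf (11206), -0.13 in the median wolf and 0.04 in the highest (11136). The mean was -0.13 ± 0.10 (SD, n = 13), while the SD between arrays of a wolf was 0.20. The first SD is of values that each rest on 4 arrays and the second is of single arrays, so they are not compared. The F test did not show a difference among the wolves beyond array noise (adjusted p = 0.553). The 4 arrays of wolf 11136 read -0.23, 0.28, 0.17 and 0.11, and those of wolf 11206 read -0.22, -0.35, -0.30 and -0.60. These arrays, unadjusted for slide, overlap, although wolf 11136 was the highest wolf on 3 of its 4 slides. No animal reached the lower bound for NR3C1, and a difference in receptor transcript between animals was not detectable on this probe.

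FKBP5 encodes a co-chaperone that sits on the receptor complex and lowers its affinity for hormone. The receptor induces it, which closes a short feedback loop, and its transcript in blood is widely used as a readout of receptor activity. Its level was -0.16 in wolf 11136, 0.22 in 11310, 0.32 in 11270, 0.35 in 10632, 0.38 in 11206, 0.40 in 11274 and 0.40 in 111080. It was 0.55 in wolf 11148, 0.56 in 10537, 0.59 in 11105, 0.67 in 10406, 0.70 in 11275 and 0.82 in 11273. The coyote stood at 0.37, in the lower part of this range.

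The FKBP5 mean was 0.44 ± 0.25 (SD, n = 13), with an SD between arrays of 0.19. The wolves accounted for 57.0% of the variance and the F test gave an adjusted p of 1.5e-06. Of the 13 wolves, 8 lay above the lower bound and none above the bound of CYP1A2. Where the lowest wolf of a gene was not above the lower bound, a range is given as at least the fold between the highest wolf and that bound, which for FKBP5 was at least 1.34-fold. Only wolf 11136 stood apart in the order: its gap to the next wolf was 0.38, while the other 11 gaps between neighbours were under 2 standard errors of a difference (0.26). Its 4 arrays read -0.38, -0.46, -0.25 and -0.05, and it was the lowest wolf on each of its 4 slides. At the other end, the arrays of wolf 11273 read 1.05, 0.33, 0.73 and 1.36, and it was the highest wolf on 2 of its 4 slides. Without wolf 11136 the SD over wolves fell to 0.18 and FKBP5 still passed, with an adjusted p of 0.0111.

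KLF9 encodes a zinc finger transcription factor that the receptor induces directly in many tissues, and it had the widest spread of the 10 genes. Its level was 0.39 in wolf 10406, 0.44 in 11148, 0.58 in 11273, 0.59 in 11275, 0.62 in 10632, 0.65 in 11136 and 0.81 in 11274. It was 1.09 in wolf 11270, 1.20 in 11105, 1.21 in 10537, 1.48 in 11310, 1.60 in 111080 and 2.42 in 11206. The coyote stood at 2.13, above every wolf but 11206.

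The KLF9 mean was 1.01 ± 0.58 (SD, n = 13) with an SD between arrays of 0.17, and the range was at least 4.06-fold, wolf 10406 lying just under the lower bound. The wolves accounted for 92.1% of the variance, with an adjusted p of 6.43e-23, which ranked the probe 113 of 24354. Of the 12 gaps between neighbours in the order, 3 exceeded 2 standard errors of a difference (0.25): those above wolves 11274, 10537 and 111080. By these gaps the order split into a low run of 7, a run of 3 near the mean, a pair and wolf 11206 by itself. Within each run neighbours did not differ beyond array spread. The runs are not groups of alike wolves: the ends of the low run, 0.39 and 0.81, lie farther apart than 2 standard errors.

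The 4 arrays of wolf 11206 read 2.15, 2.36, 2.31 and 2.60 for KLF9, and those of wolf 10406 read 0.21, 0.62, 0.39 and 0.19. These arrays, unadjusted for slide, did not overlap. Wolf 11206 was the highest wolf on all 4 of its slides and wolf 10406 the lowest on 3 of 4. Without wolf 11206 the SD over wolves fell to 0.41 and the gene still passed (adjusted p = 2.23e-14). KLF9 lay above the lower bound in 12 wolves and above the bound of CYP1A2 in 3 wolves, 11310, 111080 and 11206.

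**Figure D2:**
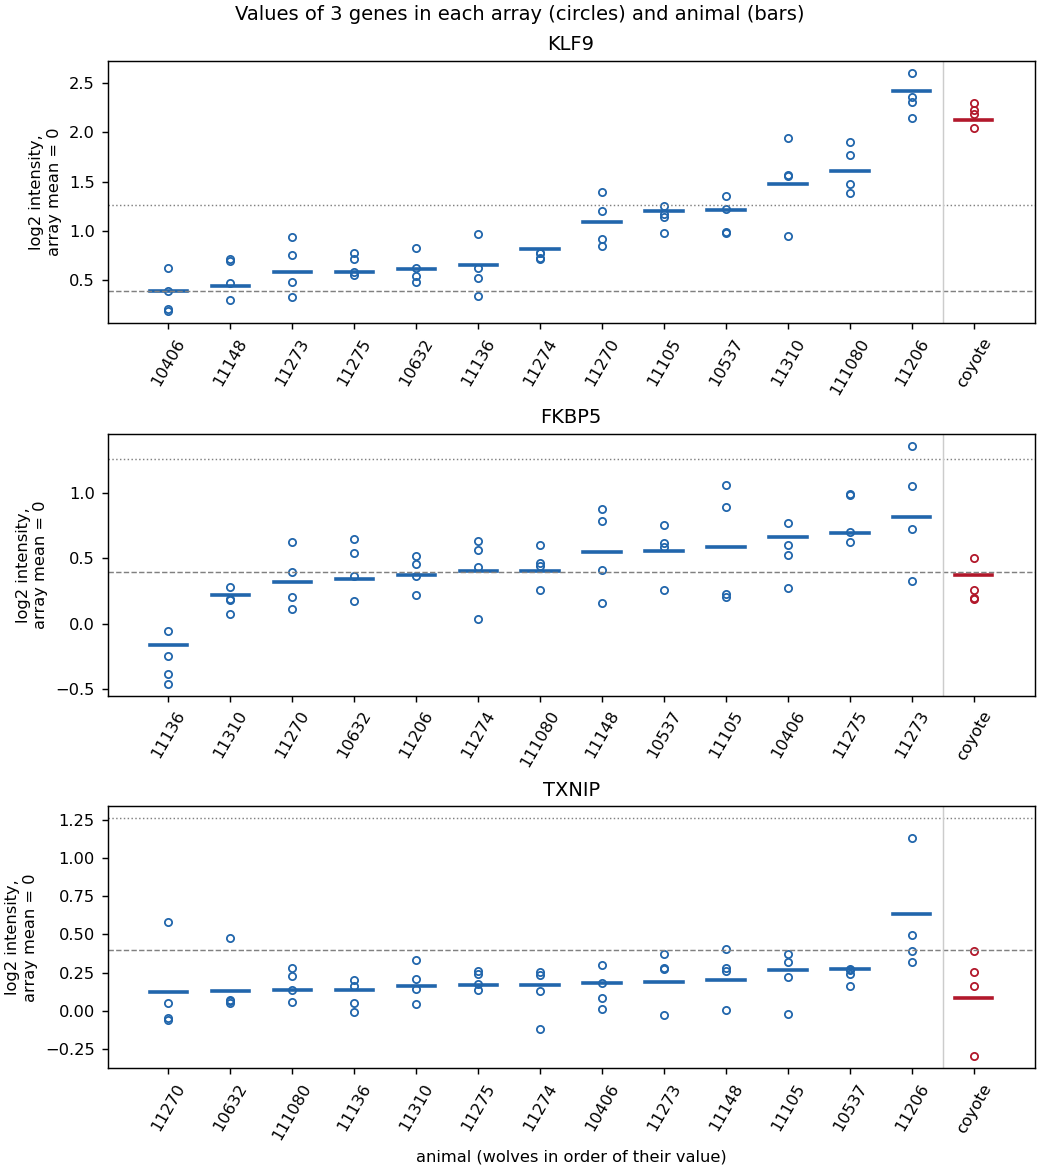
Circles are the log2 values of single arrays for KLF9, FKBP5 and TXNIP, relative to the array mean and not adjusted for slide, and bars the slide-adjusted value of each animal; wolves stand in the order of their value, with the coyote last. The arrays of wolf 11206 and of the coyote lie above 2.0 for KLF9, those of wolf 11136 lie lowest for FKBP5, and 1 array of wolf 11206 reaches 1.13 for TXNIP.

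Of the other transcriptional regulators, PER1, a clock gene with receptor binding sites in its regulatory DNA, was 0.21 in the lowest wolf (11136), 0.33 in the median wolf and 0.53 in the highest (11148). The wolves averaged 0.35 ± 0.10 (SD, n = 13) with an array SD of 0.18, and the adjusted p of the F test was 0.444. PER1 lay above the lower bound in 4 wolves, and the arrays of wolf 11148 read 0.46, 0.84, 0.43 and 0.68. ZBTB16, a zinc finger repressor that glucocorticoids raise steeply in several cell types, lay between -0.36 (wolf 11105) and -0.04 (11310), median -0.17, with an adjusted p of 0.654. TSC22D3 encodes GILZ, a leucine zipper protein that carries part of the hormone's anti-inflammatory action. Its brightest probe lay between 0.05 (wolf 11274) and 0.27 (11206), median 0.12, with an adjusted p of 0.658. The other TSC22D3 probes had mean levels of -0.28 and -0.18 over the animals and adjusted p-values of 0.435 and 0.877. No ZBTB16 or TSC22D3 probe therefore differed among wolves beyond array noise.

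DUSP1 and SGK1 act on signalling by kinases. DUSP1, a phosphatase that switches off MAP kinases, lay between -0.22 (wolf 11273) and 0.07 (10406), median -0.15. The F test gave it an adjusted p of 0.507. Wolf 10406 read 0.16, 0.14, 0.13 and 0.08 on its arrays and was the highest wolf on all 4 of its slides. That difference of 0.21 (SE 0.07) from the other wolves did not pass over all probes (adjusted p = 0.163). SGK1, a kinase that sustains sodium channels and cell survival, lay between -0.33 (wolf 111080) and -0.0032 (10406), median -0.12, with an adjusted p of 0.363. Wolf 111080, with arrays at -0.27, -0.48, -0.33 and -0.30, was lowest on 3 of 4 slides. It stood 0.23 lower than the other wolves (difference -0.23, SE 0.07), with an adjusted p of 0.0651.

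DDIT4 and TXNIP act on growth and metabolism. DDIT4, a stress-induced brake on the growth kinase mTOR, lay between -0.34 (wolf 11206) and -0.05 (11136), median -0.20, with an adjusted p of 0.718. TXNIP, which binds thioredoxin and restrains glucose uptake, was 0.12 in the lowest wolf (11270), 0.17 in the median wolf and 0.63 in the highest (11206). The second highest wolf, 10537, had 0.28, so wolf 11206 was alone above the others by a gap of 0.36. Its arrays read 0.32, 1.13, 0.50 and 0.39, 1 of them standing above the other 3, and it was highest on 2 of 4 slides. The F test gave TXNIP an unadjusted p of 0.0199 and an adjusted p of 0.127.

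Each wolf was then set against the mean of the other 12 in the same fit. A pass says that the gene differed from that mean by more than array noise. The SE and p-values of these tests measure the spread between arrays and not that among wolves, whose SD for KLF9 was 0.58. A wolf that passed can therefore lie within the spread of the other wolves. Over 130 such tests 12 passed (9.23%), against 2.88% over all probes and wolves, and they fell on 3 genes: 9 on KLF9, 2 on FKBP5 and 1 on TXNIP. Wolf 11206 (background 4.36%) had higher KLF9 by 1.53 (SE 0.09, adjusted p = 4.59e-20) and higher TXNIP by 0.43 (SE 0.09, adjusted p = 0.000364). The TXNIP call rested on the array at 1.13: without the second array of every animal the difference was 0.24 with an adjusted p of 0.261. Wolf 111080 (background 3.07%) had higher KLF9 by 0.64 (adjusted p = 5.6e-07) and wolf 11310 (4.66%) by 0.51 (adjusted p = 8.48e-05).

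KLF9 was lower in 6 wolves, with differences of -0.66 in wolf 10406 (background 1.92%), -0.62 in 11148 (3.06%), -0.46 in 11275 (1.88%), -0.46 in 11273 (3.72%), -0.43 in 10632 (1.69%) and -0.38 in 11136 (5.96%). Their adjusted p-values lay between 6.34e-07 and 0.00547. The calls in wolves 10406 and 11148 held under each of the 32 alternatives, and the smaller ones did not: the call in wolf 10632 was lost under 8, in 11136 under 5, in 11275 under 3 and in 11273 under 2. After quantile normalization, which gives every array the same signal range, the difference of wolf 11136 was 0.02 (adjusted p = 0.921). Of all animals it had the arrays with the lowest 95th percentile, 0.381 on average, against up to 0.866 in wolf 111080.

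Wolf 11136 was the lowest wolf for 33.1% of all called probes. FKBP5 was lower in it by a difference of -0.66 (SE 0.10, adjusted p = 6.13e-07). This call held under all 32 alternatives, quantile normalization included, with differences from -0.83 to -0.60. FKBP5 was higher in wolf 11273 by 0.41 (SE 0.10, adjusted p = 0.00341); this call was lost without the first array of every animal (adjusted p = 0.0563), without the fourth (0.116) and without slide 32024 (0.111). No gene of the 10 passed in wolves 10537 (background 0.517%), 11105 (2.08%), 11270 (3.14%) and 11274 (1.4%). Wolf 11206 therefore combined the highest KLF9 and TXNIP with FKBP5 of 0.38, close to the median wolf, and wolf 11273 the highest FKBP5 with KLF9 of 0.58, among the lowest.

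No relation between FKBP5 and KLF9 passed the test. Over the 13 wolves the Pearson r was -0.222 (permutation p = 0.448, adjusted over 3 pairs 0.448) and Spearman's rho -0.44 (permutation p = 0.135, adjusted 0.306). When the wolves farthest from the median of FKBP5 (11136 and 11273) were left out, r was -0.495, and within slides of at least 6 wolves it ran from -0.906 to 0.341. FKBP5 with the receptor gene NR3C1 gave r = -0.419 (permutation p = 0.153, adjusted 0.229) and rho = -0.379 (permutation p = 0.204, adjusted 0.306). Without the same 2 wolves r was 0.114, and it ran from -0.685 to 0.551 within slides, so its sign rested on those wolves. KLF9 with NR3C1 gave r = -0.476 (permutation p = 0.102, adjusted 0.229) and rho = -0.0714 (permutation p = 0.819, adjusted 0.819). Without wolves 11206 and 111080 that r was 0.122, and within slides it ran from -0.638 to 0.416. No pair passed, and the values of NR3C1 lay within array noise.

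The genes most like KLF9 over the wolves, among 427 named probes that passed the F test and lay above the bound of CYP1A2, were RAB10, a GTPase of vesicle transport (r = 0.952), FKBP1A, the small immunophilin that binds tacrolimus (0.929), and KPNA4, a nuclear import receptor (0.929). All of them were highest in wolf 11206, at 2.68, 2.82 and 2.24, as were 21.2% of all called probes. The likeness was not rare, since 25.5% of the 427 had an r above 0.8 with KLF9. Those most like FKBP5 were A3GALT2, a glycolipid glycosyltransferase gene (r = 0.945), CPM, a membrane carboxypeptidase (0.944), and FAM78A (0.931). All were lowest in wolf 11136, at 0.66, 0.72 and 1.07, and highest in wolf 11275. Of all called probes, 33.1% were lowest in wolf 11136 and 7.91% highest in wolf 11275. Here 18.7% of the 427 had an r above 0.8. With the lower bound and 1285 candidates, SETD2, a histone methyltransferase (0.954), came first for KLF9 and CD1A, an antigen-presenting molecule (0.973), for FKBP5. These values describe 13 wolves whose probes share arrays and signal range.

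FKBP5 was also correlated with the mean levels of the red cell and platelet lists, the only ones of its 9 relations to pass. An r of this size was not rare on these arrays. Of the 427 called probes above the bound of CYP1A2, 18.7% had an r above 0.8 with FKBP5. The mean level of 17 red cell genes, of which 9 lay above the lower bound, ran from 0.86 (wolf 11310) to 1.47 (11105), with 1.05 in the coyote. Over the 13 wolves FKBP5 and this mean had r = 0.78 (permutation p = 0.00127, adjusted over 18 relations 0.0114) and rho = 0.907 (permutation p = 7e-05, adjusted 0.00126). Without wolves 11136 and 11273 r was 0.861, and it was positive within all 7 slides, from 0.404 to 0.943. After quantile normalization r was 0.53, with an unadjusted permutation p of 0.0534. The mean of 14 platelet genes, 1 of them above the lower bound, ran from 0.06 (wolf 11136) to 0.17 (11273), the same wolves that were lowest and highest for FKBP5. The r was 0.822 (permutation p = 0.00014, adjusted 0.00252), 0.726 without those wolves, and from -0.0587 to 0.923 within slides. The other lists of cell type genes did not pass. For them r with FKBP5 was 0.609 for eosinophil and basophil genes, 0.537 for T cell, 0.5 for NK and cytotoxic and 0.407 for neutrophil genes. It was -0.499 for monocyte genes and -0.417 for B and plasma cell genes. The part of any cell type in the FKBP5 differences was not tested.

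**Figure D3:**
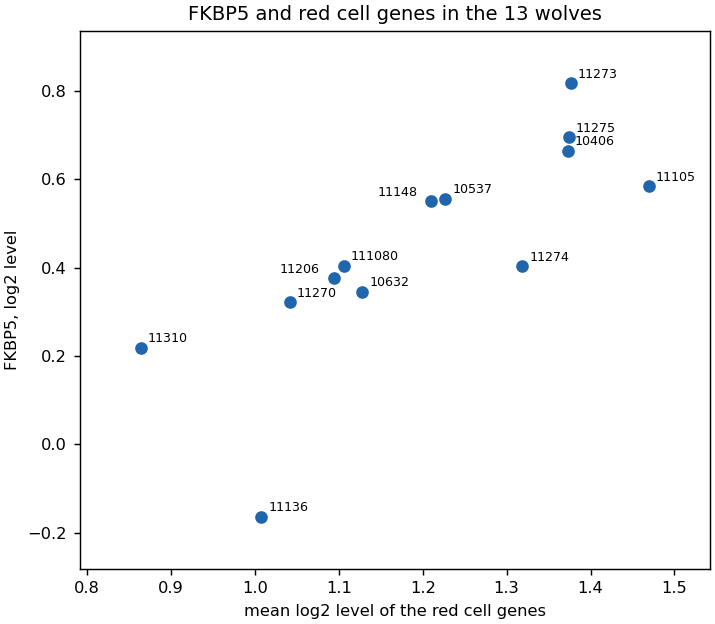
Each point is 1 of the 13 red wolves, labelled with its number, with the mean log2 level of 17 red cell genes on the horizontal axis and the log2 level of FKBP5 on the vertical axis. FKBP5 rises from wolf 11310 (0.22) to wolf 11273 (0.82) along the red cell genes (r = 0.78), and wolf 11136 lies below the other points at -0.16.

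The signal range of the arrays (their 95th percentile) had r = 0.642 with FKBP5 (permutation p = 0.0219, adjusted 0.104), and 0.133 without wolves 11136 and 11273. These relations were chosen after the values were seen, as 9 for each of KLF9 and FKBP5: 8 cell type lists and the signal range. None of the 9 passed for KLF9, where the adjusted p-values lay between 0.16 and 0.784. Its r was -0.411 with red cell genes, -0.554 with neutrophil genes and 0.483 with monocyte genes. The leukocyte lists gave few measurable markers: above the lower bound lay 1 of 21 genes for neutrophils, 2 of 14 for monocytes, 3 of 17 for T cells, 2 of 17 for NK and cytotoxic cells, 0 of 15 for B and plasma cells and 2 of 9 for eosinophils and basophils. Their part in the KLF9 differences was not tested.

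The wider pathway was described with 6 lists by textbook role: the receptor's partners, other induced genes, repressed inflammatory genes, the circadian clock, the immediate-early response and relatives of the 10 genes. Of 112 genes measured outside the 10, 25 passed the F test (22.3%, background 11.2%). These shares are not matched for level: each listed gene was taken by its brightest probe, and the background covers every probe. Since 78.2% of probes above the lower bound were called and 5.02% of the others, the list shares below are not read as a result about the pathway. Among 18 genes of the receptor, its chaperones and cofactors, 6 passed, FKBP5 included. The median share of variance of that list was 0.13, against 0.07 over all probes. HSP90AA1, which encodes an HSP90 chaperone of the receptor, ran from -0.22 (wolf 11136) to 1.05 (11273), with 0.64 in the next highest wolf (adjusted p = 3.48e-12). FKBP4, the co-chaperone that competes with FKBP5 on the receptor, ran from -0.20 (wolf 11105) to 0.62 (11273), with 0.21 next (adjusted p = 8.16e-08). Wolf 11273 was highest for HSP90AA1, FKBP4 and FKBP5; over all called genes outside the 10 it was highest for 3 of 25 (12%), against 11.7% of all called probes.

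The chaperone gene HSPA8 ran from 1.80 (wolf 11148) to 4.07 (11310) on its brightest probe. Its other probe, at a mean level of -0.31, was not called (adjusted p = 0.647, F test). The coactivator gene NCOA1 spanned 2.47-fold from wolf 10406 to 11270 on its brightest probe; its other probe, dimmer and also called, was lowest in wolf 11273 and highest in 11206. EP300, another coactivator gene, ran from 0.04 in wolf 11273, under the lower bound, to 1.07 in wolf 11206, at least 1.59-fold. FKBP4 and HSP90AA1 had mean levels over the animals below the lower bound (0.05 and 0.25). FKBP4 exceeded it in 1 wolf, 11273, and HSP90AA1 in 5 wolves.

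Of 31 other genes induced by glucocorticoids, 5 passed (16.1%, median share of variance 0.12). CEBPB, a transcription factor of myeloid cells and the liver, ran from 3.62 (wolf 10406) to 6.65 (11310), and its relative CEBPD ran from 0.24 (wolf 11148) to 0.69 (11273). BCL6, a transcriptional repressor of lymphocytes and macrophages, ran from 0.19 (wolf 11273) to 2.22 (11206) on its brightest probe, and the coyote had 2.23. The other BCL6 probe, dimmer, was not called (adjusted p = 0.499, F test) and was highest in wolf 11273. FOXO3, a stress-responsive transcription factor, ran from 0.29 (wolf 11310) to 1.04 (10537), and GADD45B, a stress sensor, from -0.11 (wolf 11136) to 0.71 (11310). The other FOXO3 probe, dimmer, was not called (adjusted p = 0.694, F test). GADD45B exceeded the lower bound in 1 wolf only, 11310. Without that wolf its adjusted p in the F test was 0.0401. By their brightest probes, CEBPB and GADD45B were thus highest in wolf 11310, and CEBPD, BCL6 and FOXO3 in 3 other wolves. Of 17 inflammatory genes that glucocorticoids repress, only the adhesion molecule gene ICAM1 passed (5.88%, median share 0.05), from 0.23 (wolf 11310) to 0.68 (111080). Its call was lost under 10 alternatives, and that of CEBPD under 9.

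Of 15 clock genes 4 passed (26.7%, median share 0.07). They were the casein kinase gene CSNK1D, which spanned 2.08-fold from wolf 11310 to 11105 on its brightest probe, and CRY1, RORA and BHLHE40. The other CSNK1D probe, also called, was lowest in wolf 11136 and highest in 111080. No wolf exceeded the lower bound for CRY1 or BHLHE40. The RORA and BHLHE40 calls were weak (adjusted p = 0.0399 and 0.0201) and were lost under 16 and 15 alternatives. The other RORA probes, all dimmer, were not called. Of 17 immediate-early genes 6 passed (35.3%, median share 0.17): EGR1, FOS, JUND, KLF2, KLF4 and KLF6. The KLF4 call was lost under 5 alternatives, with an adjusted p of up to 0.355 without the second array of every animal. KLF4 exceeded the lower bound in 2 wolves only. EGR1, FOS and JUND, a JUN family factor, were lowest in wolf 11273 and highest in wolf 11310. EGR1 (-0.23) and FOS (0.20) were under the lower bound in wolf 11273, so their ranges were at least 33.8-fold and 19.5-fold. JUND, above it in all wolves, spanned 4.87-fold. DUSP1, which is itself an immediate-early gene, stood at -0.09 in wolf 11310 and -0.22 in wolf 11273 and did not pass. KLF2 and KLF6, like KLF9 members of the Krüppel-like family, were highest in wolf 111080, at 2.29 and 2.32, and KLF4 in wolf 11206, at 0.48.

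Of 20 relatives of the 10 genes, 5 passed (25.0%, median share 0.10): TSC22D1, TSC22D2, KLF13, FKBP1A and FKBP4. The brightest probe of TSC22D1, a leucine zipper relative of TSC22D3, ran from 1.93 (wolf 11273) to 3.80 (11206). A second TSC22D1 probe, also called, gave other wolves: it ran from 0.10 (wolf 11136) to 3.56 (111080). KLF13, a near relative of KLF9, ran from 0.70 (wolf 11148) to 3.20 (11206), with 2.52 in the next wolf, 11310, and 2.69 in the coyote. TSC22D2 was 0.75 in wolf 11206 and 0.73 in wolf 11310, and it exceeded the lower bound in 4 wolves only. By their brightest probes, KLF9 and 4 of these 5 relatives were highest in the same wolf, 11206. Of the 25 called genes outside the 10, each by its brightest probe, 7 were highest in wolf 11206 (28.0%, against 21.2% of all called probes) and 7 in wolf 11310 (28.0% against 6.52%). Lowest were 9 in wolf 11273 (36.0% against 16.8%) and 3 in wolf 11136 (12% against 33.1%).

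**Figure D4:**
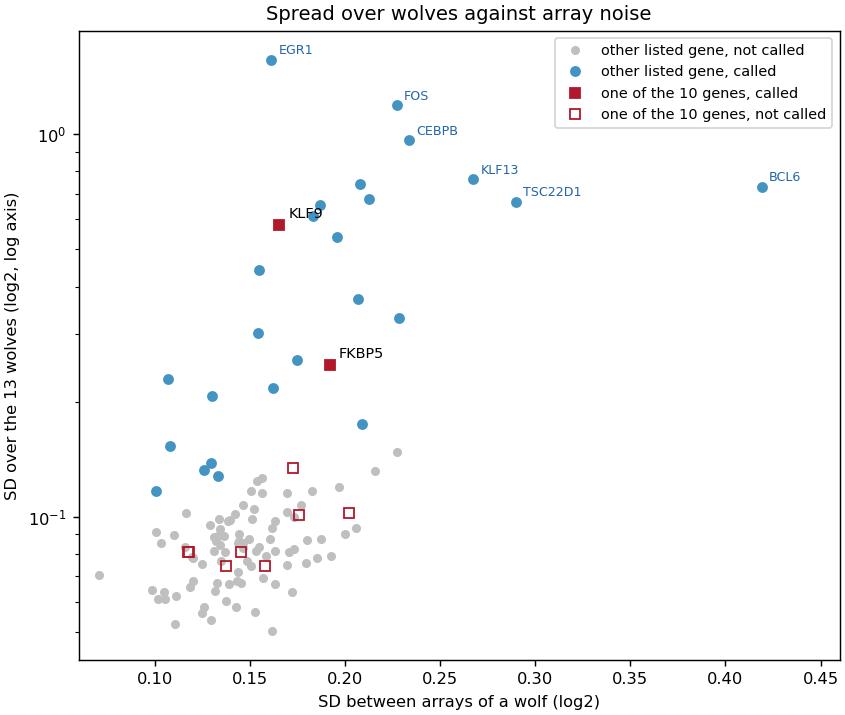
Each point is a gene, with the SD between the arrays of a wolf on the horizontal axis and the SD over the 13 wolves on the vertical axis (log axis), both in log2 units; squares are the 10 glucocorticoid genes and circles the 112 genes of the wider lists, filled in colour where the F test was passed. KLF9 (0.58) and FKBP5 (0.25) lie above the other 8 squares, and EGR1 (1.56), FOS (1.19) and CEBPB (0.97) lie highest.

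The last comparison set the coyote against the 13 wolves, with 1 value per animal. None of the 10 genes passed over all probes (limma, adjusted p = 0.998 for each; background 0.00411%, which is 1 probe), and 1 had an unadjusted p under 0.05, against 3.74% of all probes. That gene was KLF9, at 2.13 in the coyote and 1.01 ± 0.58 (SD, n = 13) in the wolves. The difference was 1.12 (SE 0.44, 95% interval 0.22 to 2.02, unadjusted p = 0.017), a 2.17-fold difference. The coyote's arrays read 2.04, 2.23, 2.30 and 2.18 and lay above the mean of the wolves on each of their 4 slides, by 1.11 to 1.31. It lay above 12 of 13 wolves, wolf 11206 being higher.

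FKBP5 differed by -0.07 (SE 0.20, 95% interval -0.49 to 0.35) and NR3C1 by 0.06 (SE 0.09, interval -0.13 to 0.25). For NR3C1 a difference as large as the 1.12 of KLF9 lies outside the interval, on a probe that did not reach the lower bound in any animal. DUSP1 and TXNIP were lower in the coyote than in every wolf, at -0.25 and 0.08, with intervals of -0.29 to 0.05 and -0.39 to 0.13. These 2 of 10 genes outside the wolves' range compare with 12.2% of all probes. The arrays of the coyote read 0.25, -0.30, 0.39 and 0.16 for TXNIP, so 1 array set its place below the wolves: without the second array of every animal the difference was 0.04. ZBTB16 was 0.13 higher (interval -0.04 to 0.30), above 12 of 13 wolves. TSC22D3, PER1, SGK1 and DDIT4 differed by -0.02, -0.08, -0.11 and -0.08, each with an interval that spans 0. With 1 coyote, its own spread had to be taken as equal to that of the wolves. Limma then moderated this spread over all probes, and for KLF9 the SE of 0.44 came out below the wolves' own SD of 0.58. The KLF9 interval and its unadjusted p thus rest on a smaller spread than the wolves showed.

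**Figure D5:**
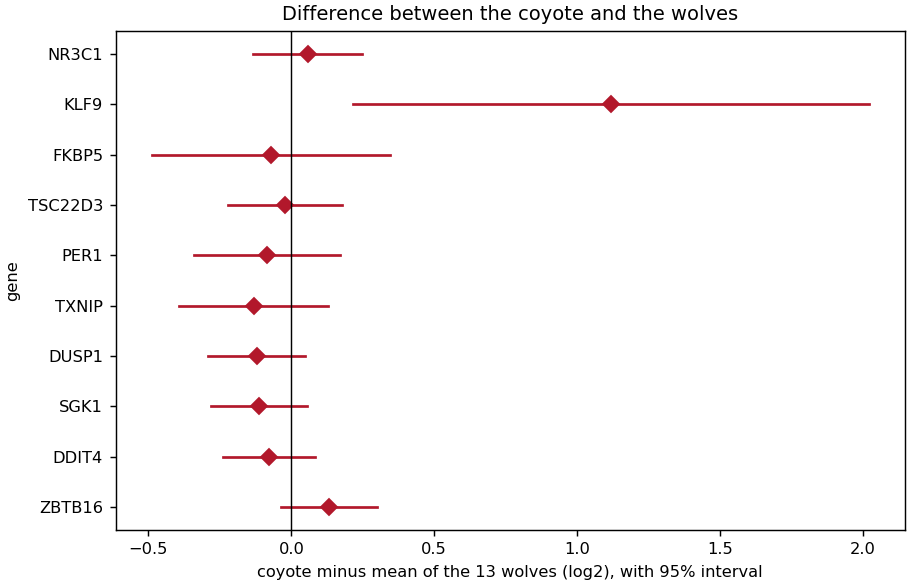
Diamonds are the difference in log2 level between the coyote and the mean of the 13 wolves for each gene (horizontal axis), and lines the 95% interval from limma's moderated fit. The interval of KLF9, 0.22 to 2.02, lies above 0 before adjustment, and those of the other 9 genes span 0.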

How the data were processed

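The deposited values are log2 intensities of 24354 probes on 56 arrays. BeadStudio 1.5.0.34 is named in the submitters' processing notes. Per the labels' design text, the authors log2-transformed raw intensities and standardized each array on its median; in the deposited table each array has a mean of 0 (largest absolute mean 3.24e-09) and medians from -0.167 to -0.0325. A fold is that of the deposited intensities, and whether a background was subtracted first is not stated in these sources. Array spread was not equalised: the 95th percentile ran from 0.332 to 1.24. The number of arrays limits the precision. Probe names came from the platform annotation, which names 1 gene for 18339 probes and no gene for 6015.

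Limma 3.58.1 in R 4.3.3 was used. Terms for animal and slide were fitted to the wolves' 52 arrays (33 residual degrees of freedom, eBayes with an intensity trend). The F test asked for any difference among wolves, and contrasts set each wolf against the other 12. The fit is across all probes with Benjamini-Hochberg adjustment at 0.05, within each contrast. These p-values measure only the spread between arrays of 1 labelled sample. For the coyote, animal and slide were fitted first and the 14 animal values compared (12 residual degrees of freedom before moderation). Correlations used 100000 permutations, two-sided.

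A gene with several probes was represented by its brightest. Named were the 10 genes, up to 6 called members of each wider list by SD over wolves, and the 3 genes most alike. Genes and lists were chosen with earlier results of these data known. The lower bound and the relations with cell type lists were added after values were seen. Each fit was tested on simulated data in which some probes were shifted by a known amount. For the coyote, the simulated spread between animals was below the SD of 0.58 that KLF9 had over the wolves. That test therefore does not cover the KLF9 comparison. Alternatives were slide and position terms, centring, scaling, probe filters, probe averaging, the trend, and leaving out replicates, wolves or slides. No sequences are shown, since none were used.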

Additional observations from a re-analysis of the deposited data

Results flagged for a closer look

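In 6 of 140 sets of 4 arrays (10 genes in 14 animals), 1 array lay far from the other 3, by Dixon's test of the gap against the range of the set. The readings tested were not adjusted for slide. Chance flags about 5% of such sets, here 7, so the number is not above it. TSC22D3 read -0.028 on 1 array of wolf 11274, against 0.10 to 0.11 on the other 3. PER1 read 0.69 on 1 array of wolf 10632, against 0.26 to 0.28, and TXNIP read 0.48 on an array of that wolf, against 0.05 to 0.07. These high arrays of wolf 10632 were both on slide 32020. SGK1 read -0.37 on 1 array of wolf 11206, against -0.15 to -0.11, and -0.26 on 1 array of wolf 11274, against -0.08 to -0.06. ZBTB16 read 0.10 on 1 array of wolf 11275, against -0.41 to -0.34. None of these sets belongs to KLF9 or FKBP5. The TXNIP set of wolf 11206, with 1 array at 1.13, was not flagged.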

How the results depend on the processing

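Of 34 alternatives, 24 left out a replicate, wolf or slide. The calls of KLF9 and FKBP5 among the wolves held under all 33 that tested them, with adjusted p-values up to 2.23e-14 and 0.0111, and 2 or 3 of the 10 genes passed; the added one was TXNIP (adjusted p = 0.0414) without replicate 4. None of the 10 reached the bound of CYP1A2, so that filter tested none of them and left 9 of the 25 wider genes. The 12 calls of single wolves became 8 to 13. No gene passed for the coyote, where KLF9 differed by 0.997 to 1.32. Over all probes 2732 calls became 546 above the bound of CYP1A2, 1790 above the lower bound and 1629 without replicate 3. The coyote's difference turned sign for TSC22D3 after quantile normalization (0.0221) and with the mean of its probes (0.024), and KLF9 in wolf 11136 did so after quantile normalization (0.0233). Leaving out replicates, wolves or slides moved the coyote's difference from -0.13 to 0.0089 for FKBP5, -0.0793 to 0.0248 for TSC22D3, -0.241 to 0.0442 for SGK1 and -0.238 to 0.0413 for TXNIP, and r of KLF9 with NR3C1 from -0.583 to 0.0632. The causes were not tested. The numbers of an animal's arrays are names only, so no paired fit across animals was made; slide took that place.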
